A study of Mus musculus with 24 samples.

Results

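The glucocorticoid receptor Nr3c1, the mineralocorticoid receptor Nr3c2, 7 genes that glucocorticoids are known to induce in brain or other tissues (Fkbp5, Plin4, Sgk1, Tsc22d3, Zbtb16, Cdkn1a and Ddit4) and the non-coding RNA Gas5 were followed across the hypothalamus of hypertensive and normotensive mice. A gene was taken where an array probe set carried its symbol alone, and where it had several such probe sets, the one with the highest mean over all arrays was used. This found 9 of the 10 genes among 19937 genes on the array. Cdkn1a shares its probe set with 4930567H12Rik and is given separately. The mice were males of 2 inbred strains, BPH/2J with high and BPN/3J with normal blood pressure, at 6 and 26 weeks of age. Each of the 4 groups had 6 mice, with no pooling and no treatment beyond standard housing, so that each array stands for a separate mouse. The whole hypothalamus was dissected at the time of day when blood pressure peaks, and each sample was read on an Affymetrix Mouse Gene 1.0 ST array. The strains differ at many loci besides those that act on blood pressure, so a strain difference cannot be told apart from any other inherited difference between them.

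Corticosterone, the main glucocorticoid of the mouse, crosses into brain cells and binds receptors that wait in the cytoplasm with chaperones. The bound receptor moves into the nucleus and switches on genes through the glucocorticoid response element, a short DNA palindrome. In the hypothalamus this ends the stress response by feedback on corticotropin-releasing neurons. Nr3c2 binds corticosterone more tightly than Nr3c1, and so acts at the resting level of the hormone. FKBP5 itself holds the receptor in a state that binds hormone poorly. Gas5 carries small nucleolar RNAs in its introns, and its spliced RNA can fold into a mimic of the response element that binds the glucocorticoid receptor.

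The sequences before the start sites show where the binding element lies in these genes. A RefSeq promoter table of assembly GRCm38.p6 held 17 start sites of 8 of the 10 genes; Nr3c1 and Zbtb16 were not in it. The 250 bases before each start were searched on both strands for the full element (AGAACA, any 3 bases, then TGTTCT) and for a relaxed form that lies within it (GNACA, any 3 bases, then TGTNC, where N is any base). The full element was found before 1 of the 17 starts, an Sgk1 start, where it began 189 bases upstream. It was found in 3 of the 32851 windows of the whole table (0.00913%) and the relaxed form in 127 (0.387%). The relaxed form was found in no other window of these genes. The 5 windows shown are the Sgk1 window with the element, 1 of 6 in the table for that gene, and those of Fkbp5, Plin4 and Gas5, the genes called at 6 or 26 weeks; capitals mark the full element.
Sgk1 chr10:21993640-21993889 (plus strand): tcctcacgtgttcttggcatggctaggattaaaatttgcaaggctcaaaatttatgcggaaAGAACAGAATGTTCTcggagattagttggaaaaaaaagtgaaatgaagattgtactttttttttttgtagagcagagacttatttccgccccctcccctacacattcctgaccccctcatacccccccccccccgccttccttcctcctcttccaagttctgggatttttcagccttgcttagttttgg
Fkbp5 chr17:28486150-28486399 (minus strand): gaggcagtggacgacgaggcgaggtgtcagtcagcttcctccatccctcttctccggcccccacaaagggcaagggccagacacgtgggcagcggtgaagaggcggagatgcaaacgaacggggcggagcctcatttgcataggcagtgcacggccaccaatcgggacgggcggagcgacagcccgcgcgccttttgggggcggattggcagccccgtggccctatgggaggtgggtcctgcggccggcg
Plin4 chr17:56109783-56110032 (minus strand): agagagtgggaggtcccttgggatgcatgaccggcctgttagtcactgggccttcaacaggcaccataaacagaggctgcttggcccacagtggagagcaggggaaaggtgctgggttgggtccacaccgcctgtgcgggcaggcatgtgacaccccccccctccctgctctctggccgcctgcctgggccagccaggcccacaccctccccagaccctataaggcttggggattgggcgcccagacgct
Gas5 chr1:161034351-161034600 (plus strand): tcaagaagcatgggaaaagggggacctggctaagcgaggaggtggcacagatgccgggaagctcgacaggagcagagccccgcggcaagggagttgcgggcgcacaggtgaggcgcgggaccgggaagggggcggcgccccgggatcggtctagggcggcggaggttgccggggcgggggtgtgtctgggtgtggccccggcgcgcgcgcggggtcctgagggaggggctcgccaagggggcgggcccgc
Gas5 chr1:161034916-161035165 (plus strand): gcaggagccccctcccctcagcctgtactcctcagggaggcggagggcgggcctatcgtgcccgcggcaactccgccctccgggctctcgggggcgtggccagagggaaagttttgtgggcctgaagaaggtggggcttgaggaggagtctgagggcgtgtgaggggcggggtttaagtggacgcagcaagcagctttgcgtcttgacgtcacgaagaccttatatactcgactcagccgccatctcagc
The Sgk1 window alone carries capitals, since Fkbp5, Plin4 and Gas5 hold neither form in the windows shown. A lack of these letters in a short window says nothing of binding sites elsewhere.

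Some facts of the arrays bear on the values below. Deposited values were on the log2 scale, with array medians from 5.89 to 6.09, and the number of arrays limits the precision. The label hypothalamus was checked with 15 measured marker genes, such as Agrp, Pomc and Avp, whose mean ran from 6.93 to 8.50 over the 24 arrays. Markers of the neighbouring thalamus were also present. Of 16 measured thalamus markers, 13 passed limma's test at 6 weeks with the lower level in BPH/2J, and their mean was 7.98 to 9.53 there against 9.48 to 9.84 in BPN/3J. At 26 weeks 1 of 16 was lower and the ranges overlapped, at 9.46 to 9.77 and 9.06 to 9.84. Of 13 oligodendrocyte markers 6 were also lower at 6 weeks, and of 15 hypothalamus markers 7 were higher in BPH/2J. At that age 4.42% of all genes were called lower and 2.99% higher, and at 26 weeks 1.34% were called lower. Of 10 neuron markers 4 were lower at 6 weeks (means of 10.98 in BPH/2J and 11.13 in BPN/3J) and limma called 0 at 26 weeks (1 had an unadjusted p below 0.05), and of 9 microglia markers 2 (7.54 and 7.68) and 1 were lower. Among the 26-week arrays, replicates 5 and 6 of both strains stood apart from the others along the first component of the variation within groups, which held 41.9% of it. The labels name no batch, and these 4 arrays are called the second array set.

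The levels of both receptors' RNA did not pass the test between the strains at either age. Nr3c1 was measured at 9.11, 9.27 and 9.39 (lowest, median and highest array) in BPH/2J at 6 weeks and at 9.40, 9.45 and 9.48 in BPN/3J. All 6 BPH/2J arrays thus lay below all 6 BPN/3J arrays, but by a small margin. The difference, BPH/2J minus BPN/3J, was -0.19 ± 0.08 log2 units (SE, n = 6 per group; limma adjusted p = 0.207), with a 95% interval from -0.36 to -0.02. It passed when only the 6-week groups were fitted (-0.19, adjusted p = 0.0409), with arrays weighted by their quality (-0.18, 0.0156) and without the second array set (-0.19, 0.0143). With the thalamus marker mean as a covariate the difference was 0.01 ± 0.11.

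At 26 weeks Nr3c1 was at 9.22, 9.46 and 9.54 in BPH/2J and at 8.96, 9.50 and 9.53 in BPN/3J. The groups overlapped, and the lowest arrays of both strains belonged to the second array set. The difference was 0.06 ± 0.08 (adjusted p = 0.875). It was -0.04 within the first array set, with 4 mice per strain, and 0.25 within the second, with 2 per strain.

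Nr3c2, which in kidney controls salt uptake and in brain senses resting corticosterone, was at 7.21, 7.24 and 7.35 in BPH/2J at 6 weeks and at 7.22, 7.34 and 7.54 in BPN/3J. At 26 weeks it was at 7.47, 7.60 and 8.04 in BPH/2J and at 7.36, 7.60 and 8.45 in BPN/3J. The strains overlapped at both ages, with differences of -0.11 ± 0.13 (interval -0.38 to 0.15) and -0.03 ± 0.13 (interval -0.30 to 0.23).

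**Figure D1:**
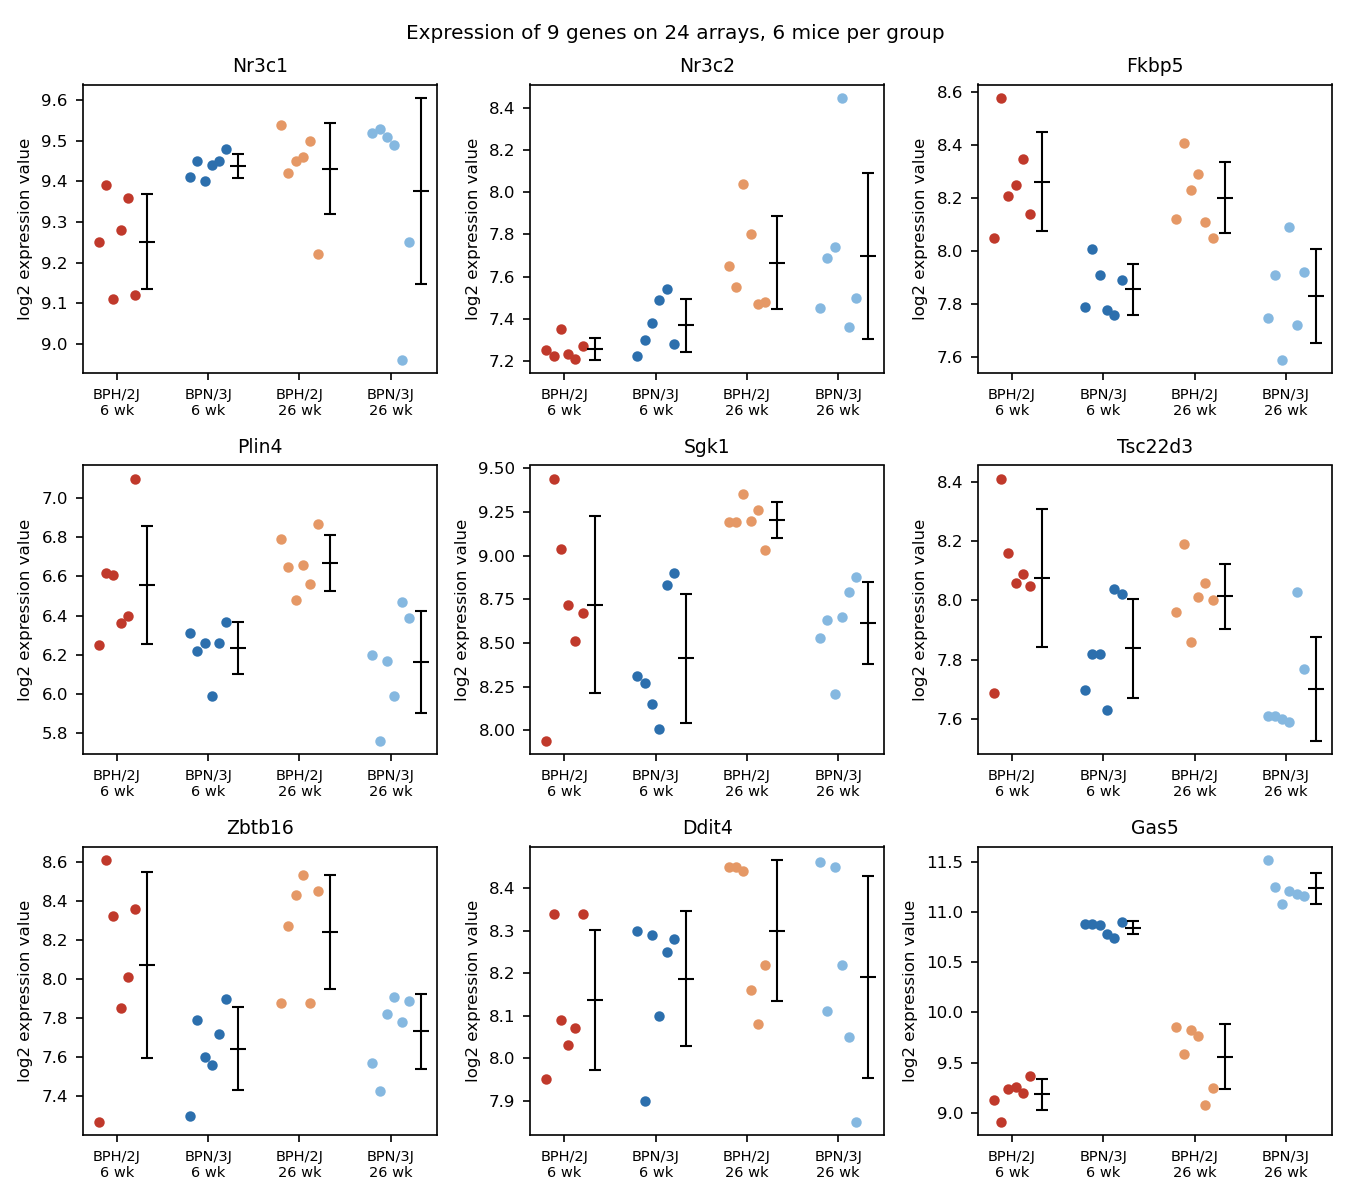
Log2 expression value (vertical axis, a separate range in each panel) of 9 genes in single mice, 6 per group, with group mean ± SD as black bars. Gas5 is split by strain without overlap, at 8.91 to 9.85 in BPH/2J and 10.74 to 11.52 in BPN/3J, while the receptors Nr3c1 and Nr3c2 lie close between the strains.

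Among the glucocorticoid-induced genes, Fkbp5, an inhibitor of the receptor, was higher in BPH/2J by 1.33-fold at 6 weeks and 1.29-fold at 26 weeks, and Plin4, a protein of lipid droplets, by 1.42-fold at 26 weeks. Sgk1, Tsc22d3 and Zbtb16 had positive differences at both ages that did not pass the test at either. Of the 9 genes, 2 were called at 6 weeks and 3 at 26 weeks, Gas5 included, against a background of 7.42% and 2.67% of all genes. The 9 genes were chosen with earlier results of these data known, so a share above background is no test of the set. The strains did not overlap for 3 of 9 genes at either age (background 5.44% at 6 weeks and 1.75% at 26 weeks); these were Nr3c1, Fkbp5 and Gas5 at 6 weeks and Plin4, Sgk1 and Gas5 at 26 weeks.

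Fkbp5 was at 8.05, 8.23 and 8.58 in BPH/2J at 6 weeks and at 7.76, 7.84 and 8.01 in BPN/3J. Every BPH/2J array was above every BPN/3J array, and the difference was 0.41 ± 0.09 (adjusted p = 0.00351). At 26 weeks its values were 8.05, 8.18 and 8.41 in BPH/2J and 7.59, 7.83 and 8.09 in BPN/3J. Here the highest BPN/3J array reached just past the lowest BPH/2J array, and the difference was 0.37 ± 0.09 (adjusted p = 0.0155). The call ended when mouse 2 of BPH/2J (0.33, adjusted p = 0.0532) or mouse 3 of BPN/3J (0.32, 0.0516) was removed, mice being numbered by their replicate, or with only the 26-week groups fitted (0.37, 0.0783). Within the array sets the 26-week difference was 0.43 in the first and 0.26 in the second.

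Plin4 was at 6.25, 6.50 and 7.10 in BPH/2J at 6 weeks and at 5.99, 6.26 and 6.37 in BPN/3J. The groups overlapped, with BPH/2J replicate 6 far above the rest of its group, and the difference of 0.32 ± 0.12 did not pass (adjusted p = 0.12). At 26 weeks the values were 6.48, 6.66 and 6.87 in BPH/2J and 5.76, 6.18 and 6.47 in BPN/3J. The lowest BPH/2J array lay just above the highest BPN/3J array, and the difference was 0.51 ± 0.12 (adjusted p = 0.0166). Without BPN/3J replicate 2 it was 0.43 (adjusted p = 0.0545). It was 0.62 within the first array set and 0.29 within the second.

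Sgk1, a kinase that raises sodium channel and transporter activity and whose promoter carries the full element shown above, varied most between mice at 6 weeks. It was at 7.94, 8.69 and 9.44 in BPH/2J and at 8.01, 8.29 and 8.90 in BPN/3J, so that BPH/2J held both the lowest and the highest array of that age. The difference was 0.31 ± 0.18 (adjusted p = 0.396). At 26 weeks the BPH/2J arrays were close together, at 9.03, 9.19 and 9.35, and all lay above the BPN/3J arrays at 8.21, 8.64 and 8.88. The difference of 0.59 ± 0.18, or 1.5-fold (interval 1.17 to 1.94), missed the threshold (adjusted p = 0.0822). It passed when only the 26-week groups were fitted (0.59, 0.00623), and without BPH/2J replicate 1 or 2 of the 6-week group (0.59, with adjusted p = 0.0327 and 0.0379). It was 0.73 within the first array set and 0.31 within the second.

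Tsc22d3, which encodes the leucine zipper protein GILZ that carries part of the anti-inflammatory action of glucocorticoids, was at 7.69, 8.07 and 8.41 in BPH/2J at 6 weeks and at 7.63, 7.82 and 8.04 in BPN/3J. At 26 weeks it was at 7.86, 8.01 and 8.19 in BPH/2J and at 7.59, 7.61 and 8.03 in BPN/3J. At that age 4 BPN/3J arrays lay in a narrow band below BPH/2J, and replicate 5, of the second array set, lay within the BPH/2J range. The differences were 0.24 ± 0.10 (adjusted p = 0.171) and 0.31 ± 0.10 (0.102). The 6-week value passed without BPH/2J replicate 1 (0.32, 0.0402) and the 26-week value without BPN/3J replicate 5 (0.38, 0.0223). Within the array sets the 26-week value was 0.40 and 0.13.

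Zbtb16, a zinc finger repressor that glucocorticoids induce strongly in many cells, was at 7.27, 8.17 and 8.61 in BPH/2J at 6 weeks and at 7.30, 7.66 and 7.90 in BPN/3J. At 26 weeks it was at 7.88, 8.35 and 8.53 in BPH/2J and at 7.43, 7.80 and 7.91 in BPN/3J. The strains overlapped at both ages, at 6 weeks through BPH/2J replicates 1 and 4. The differences were 0.42 ± 0.16 (adjusted p = 0.138) and 0.51 ± 0.16 (0.12). Without that BPH/2J replicate 1 they were 0.58 (0.0118) and 0.51 (0.0398). Both also passed with the replicate number as a block over all arrays (limma adjusted p = 0.0489 and 0.0361). A block over the 26-week arrays alone gave 0.51 and a limma adjusted p of 0.0865. Whether the replicate numbers pair arrays was not tested. Within the array sets the 26-week value was 0.59 and 0.33.

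The last induced gene with a probe set of its own was Ddit4, a stress-induced inhibitor of the growth kinase mTOR. It was at 7.95, 8.08 and 8.34 in BPH/2J and 7.90, 8.26 and 8.30 in BPN/3J at 6 weeks, and at 8.08, 8.33 and 8.45 against 7.85, 8.16 and 8.46 at 26 weeks. The strains overlapped over nearly their whole ranges. The differences were -0.05 ± 0.10 (interval -0.26 to 0.16) and 0.11 ± 0.10 (interval -0.10 to 0.32). The probe set that Cdkn1a, an inhibitor of the cell cycle, shares with 4930567H12Rik was at 5.74, 6.18 and 6.41 in BPH/2J and 5.66, 5.87 and 5.97 in BPN/3J at 6 weeks, a difference of 0.32 ± 0.14 (adjusted p = 0.287 over 34760 probe sets). At 26 weeks the difference was 0.08 ± 0.14 (adjusted p = 0.9). The signal cannot be divided between the 2 genes.

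None of the strain differences was shown to depend on age. In the test of the interaction 0 of 9 genes passed, against a background of 0.0301%, and 1 had an unadjusted p below 0.05 (background 10.8%). Of all genes 6 passed, and 496 without mouse 2 of the 6-week BPH/2J group, where again 0 of the 9 genes did. The 1 gene was Nr3c1, with a change of 0.24 ± 0.12 from the 6-week to the 26-week strain difference (adjusted p = 0.452). For Fkbp5, Plin4, Sgk1, Tsc22d3 and Zbtb16 the change was -0.04 ± 0.12, 0.18 ± 0.17, 0.28 ± 0.25, 0.07 ± 0.14 and 0.08 ± 0.23. A contrast averaging the strain difference over both ages was added after the values at each age had been seen.

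Both the genes and the averaged contrast were chosen with values of these data known, so the counts here describe the set and do not test it. Averaged over both ages, 6 of the 9 genes passed (background 7.8%), 5 of them higher in BPH/2J (background 3.66%). These were Zbtb16 by 0.46 ± 0.12 (adjusted p = 0.0112), Sgk1 by 0.45 ± 0.13 (0.0249), Plin4 by 0.41 ± 0.09 (0.00207), Fkbp5 by 0.39 ± 0.06 (0.000101) and Tsc22d3 by 0.28 ± 0.07 (0.0118). As folds these ran from 1.21 to 1.38. Gas5 was lower, and Nr3c1, Nr3c2 and Ddit4 did not pass, at -0.07 ± 0.06, -0.07 ± 0.09 and 0.03 ± 0.07. Leaving out single arrays ended the call only for Sgk1, without BPN/3J replicate 3 of the 26-week group (0.41, adjusted p = 0.0501).

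The markers of other tissue were set beside these 5 genes. With the thalamus marker mean as a covariate the averaged differences were 0.63 for Zbtb16, 0.66 for Sgk1, 0.45 for Plin4, 0.50 for Fkbp5 and 0.37 for Tsc22d3, and all 5 passed. At 26 weeks, where the thalamus markers overlapped, the covariate left Fkbp5 at 0.36 and Plin4 at 0.50. Of 15 hypothalamus markers 2 were still called higher in BPH/2J at 26 weeks and 0 lower, with list means of 7.77 and 7.35. Averaged over both ages 7 were called higher and 0 lower, with a median difference of 0.55. A fit with the hypothalamus marker mean as a covariate was not made. The mean of 13 endothelial and pericyte markers was 8.10 to 8.39 in BPH/2J and 8.16 to 8.33 in BPN/3J at 6 weeks, and 8.28 to 8.55 and 8.17 to 8.53 at 26 weeks. The mean of 10 astrocyte markers was 10.15 to 10.33 and 10.12 to 10.29, then 9.95 to 10.13 and 9.95 to 10.16. The means of both lists overlapped between the strains at both ages. Of the endothelial and pericyte markers 1 was called higher in BPH/2J at each age. Of the astrocyte markers 1 was called higher at 6 weeks and 0 at 26 weeks (2.99% and 1.32% of all genes). Averaged over both ages 1 endothelial and pericyte marker and 2 astrocyte markers were called higher (3.66% of all genes). In both lists 0 were called lower in each of these comparisons. In a bulk tissue a smaller number of expressing cells and less RNA per cell cannot be told apart.

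**Figure D2:**
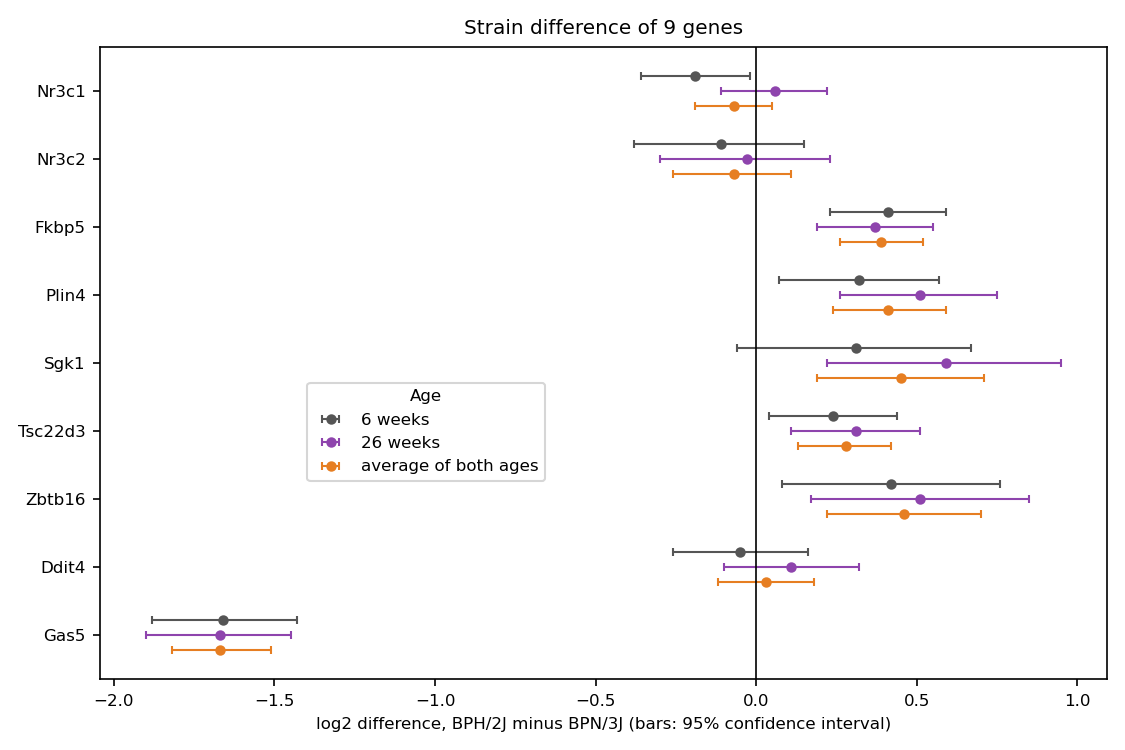
Difference between the strains (horizontal axis, log2 units, BPH/2J minus BPN/3J) for 9 genes at 6 weeks, at 26 weeks and averaged over both, with 95% confidence intervals from limma. Fkbp5, Plin4, Sgk1, Tsc22d3 and Zbtb16 lie to the right of 0, at averages of 0.28 to 0.46, the receptors and Ddit4 have averaged intervals that span 0, and Gas5 lies at -1.67.

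A wider list of 27 other glucocorticoid-induced genes was set beside these, also chosen with earlier results of these data known. Of them 26 were measured. At 6 weeks 4 were higher in BPH/2J and 1 lower (2.99% and 4.42% of all genes), with a median difference of 0.11 against 0.01 over all genes; at 26 weeks 3 were higher and 0 lower (1.32% and 1.34%), with a median of 0.17 against 0.01. Averaged over both ages 8 were higher and 0 lower (3.66% and 4.14%). Averaged over both ages Fam107a, an actin-binding protein induced by stress and glucocorticoids, differed most. Its BPH/2J arrays were at 9.43 to 9.79 and its BPN/3J arrays at 8.56 to 8.86 at 6 weeks, a difference of 0.93 ± 0.10 (adjusted p = 4.14e-07), and it was 0.72 ± 0.10 at 26 weeks (2.46e-05). Its strains did not overlap at either age. Mfsd2a, the lipid transporter of brain endothelium, was higher by 0.46 ± 0.09 (0.00188) and 0.44 ± 0.09 (0.00539). Sult1a1, a sulfotransferase, was higher at 6 weeks (0.40 ± 0.11, adjusted p = 0.0302) and Glul, glutamine synthetase of astrocytes, at 26 weeks (0.30 ± 0.06, 0.00369). Mt1, a metal-binding protein, was the remaining one called at 6 weeks (0.25; up to 0.0959 with 1 mouse removed). Removal of 1 mouse ended the Sult1a1 call for BPH/2J mice 3 and 6 and BPN/3J mice 1, 3, 4 and 5 (adjusted p up to 0.0997), and the Mt1 call for BPH/2J mice 1, 3, 4 and 6 and BPN/3J mice 2, 3, 4 and 6. The Glul call ended with only the 26-week groups fitted (0.30, 0.0653), while the strain calls of Fam107a and Mfsd2a held with any single mouse removed. With the thalamus marker mean as a covariate the 6-week calls of Sult1a1 (0.31, limma adjusted p = 0.785) and Mt1 (0.17, 0.883) were lost. Their averaged calls were lost with it too (limma adjusted p = 0.314 and 0.113), while the strain calls of Fam107a and Mfsd2a were kept.

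The list also held genes with other patterns. Rasd1, a dexamethasone-induced Ras protein, was lower in BPH/2J at 6 weeks by 0.92 (SE 0.20, adjusted p = 0.00459); its BPH/2J arrays spread from 7.75 to 9.59 and overlapped the 9.34 to 9.64 of BPN/3J. With the thalamus marker mean as a covariate its difference at 6 weeks was 0.16 (adjusted p = 0.896), and its 26-week difference was 0.20. The quickly induced genes Dusp1 and Errfi1 were at -0.12 ± 0.13 and -0.03 ± 0.06 averaged over both ages. Klf9, a transcription factor, was at -0.17 ± 0.09 at 6 weeks (adjusted p = 0.29) and 0.20 ± 0.09 at 26 weeks (0.301), with an interaction of 0.37 ± 0.12 that did not pass (adjusted p = 0.186). The clock gene Per1 was at 0.19 ± 0.06 (adjusted p = 0.0459), a call lost in 15 of the 24 fits without 1 array.

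**Figure D3:**
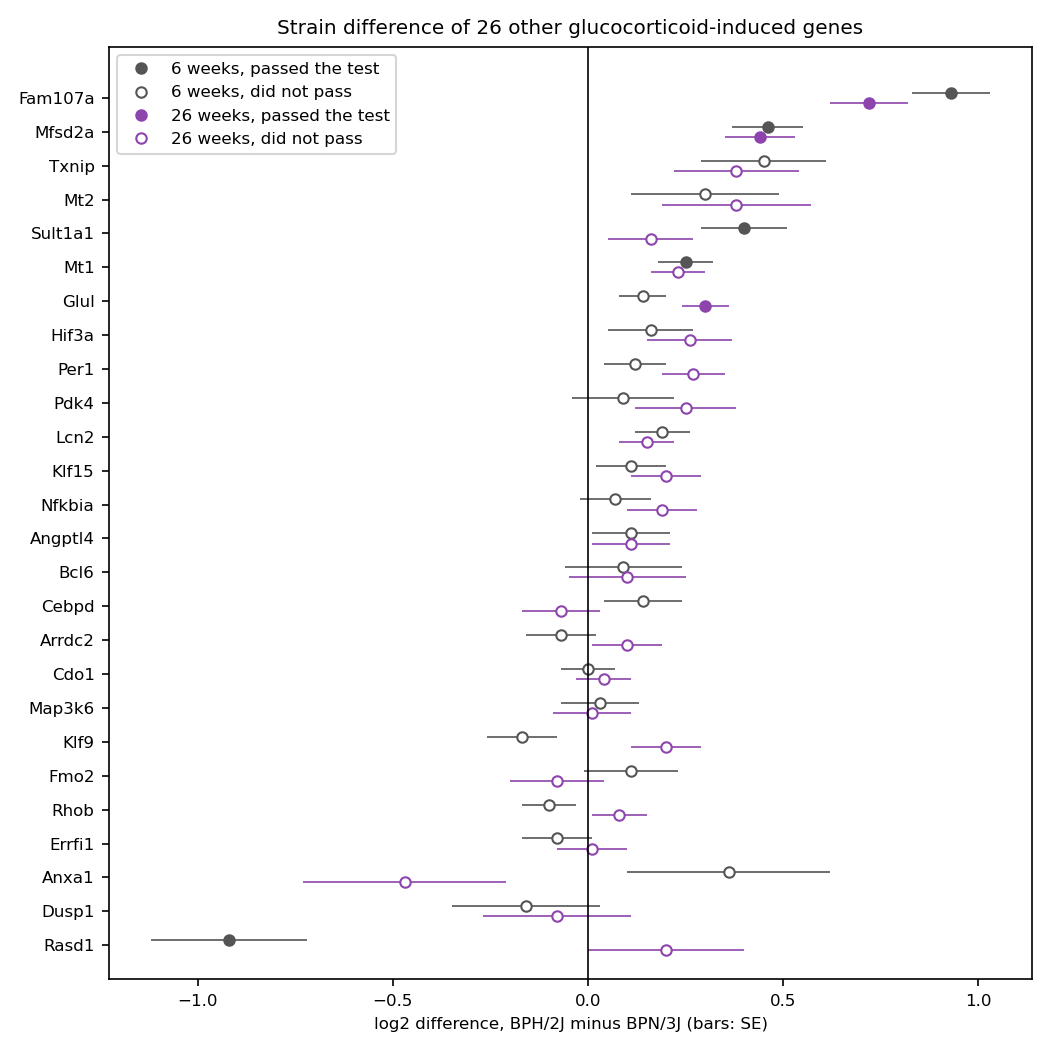
Strain difference (horizontal axis, log2 units, BPH/2J minus BPN/3J, bars are SE) of 26 other glucocorticoid-induced genes at 6 and 26 weeks, ordered by their average; filled points passed limma's test. Fam107a and Mfsd2a passed at both ages, Rasd1 lies at -0.92 at 6 weeks.

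The proteins that work with the receptors were compared next. Of 15 measured chaperones and cochaperones that fold the receptor, 0 passed limma's test at either age, with 1 and 2 at an unadjusted p below 0.05 (18.1% and 12.5% of all genes). The cochaperone Fkbp4, which competes with FKBP5 on the receptor, was at -0.11 ± 0.05 (adjusted p = 0.235) at 6 weeks. Of 10 coregulators, Ppargc1a was lower at 6 weeks (-0.38 ± 0.11, limma adjusted p = 0.0329) and Ncoa3 at 26 weeks (-0.27 ± 0.07, 0.0191). Over all genes 4.42% were called lower at 6 weeks and 1.34% at 26 weeks. Removal of 1 mouse ended the Ppargc1a call for BPH/2J mice 3, 4, 5 and 6 and BPN/3J mice 1, 3, 5 and 6 (adjusted p up to 0.103), and the Ncoa3 call for BPH/2J mouse 2 and BPN/3J mouse 6 (up to 0.0646). The Ppargc1a call also ended with the thalamus covariate (-0.43, limma adjusted p = 0.41). Of 10 genes that make, carry or inactivate steroids, 0 passed limma's test in either strain comparison (1 and 2 at an unadjusted p below 0.05); Hsd11b1, the enzyme that regenerates active glucocorticoid inside cells, was at -0.30 ± 0.13 (adjusted p = 0.177) at 6 weeks. Downstream of Nr3c2 and Sgk1, 1 of 14 genes was called lower at each age (4.42% and 1.34% of all genes). These were the transporter-activating kinase Stk39 at 6 weeks (-0.28 ± 0.07, limma adjusted p = 0.00821) and the salt-sensing kinase Wnk1 at 26 weeks (-0.32 ± 0.08, 0.0153). The Stk39 difference was -0.18 (adjusted p = 0.743) with the thalamus covariate, and that of Wnk1 -0.27 (0.104) without the second array set.

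The pathways next to Ddit4 and Cdkn1a were also compared. Over all genes 7.42% were called between the strains at 6 weeks and 2.67% at 26 weeks. Of 11 mTOR pathway genes 0 passed limma's test at either age, with 0 and 1 at an unadjusted p below 0.05. Of 12 p53 targets and regulators 0 passed at 6 weeks, with 1 at an unadjusted p below 0.05, and 1 at 26 weeks, Btg2, an inhibitor of proliferation (-0.39 ± 0.08, adjusted p = 0.00366; 0.0736 with only the 26-week groups fitted). Of 17 close relatives of the 10 genes, such as other perilipins and Sgk2, only Ddit4l, the paralog of Ddit4, passed, at 6 weeks (-0.56 ± 0.15, adjusted p = 0.0218). The Ddit4l call ended with BPH/2J mouse 6, BPN/3J mouse 3 or BPN/3J mouse 5 removed (adjusted p up to 0.0627). It also ended with the thalamus covariate (-0.84, limma adjusted p = 0.0805).

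Gas5 had by far the largest strain difference of the 9 genes, and it ran the other way. It was at 8.91, 9.22 and 9.37 in BPH/2J at 6 weeks and at 10.74, 10.87 and 10.90 in BPN/3J. At 26 weeks it was at 9.08, 9.67 and 9.85 in BPH/2J and at 11.08, 11.19 and 11.52 in BPN/3J. The gap between the strains exceeded the range within any group. The difference was -1.66 ± 0.11 at 6 weeks (adjusted p = 4.48e-11) and -1.67 ± 0.11 at 26 weeks (3.53e-11), which is 3.15-fold and 3.19-fold lower signal of this probe set in BPH/2J. The change of the difference with age was -0.02 ± 0.15. Within the 26-week array sets it was -1.51 and -2.01.

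This value came from probe set 10351026, which the platform table ties to 4 transcript accessions. Each of the other 3 probe sets named Gas5 is tied to 1 accession, and they gave smaller differences in a fit over all 34760 probe sets (4.3% called at 6 weeks and 2.14% at 26 weeks). Probe set 10351035 was at 0.09 ± 0.28 and -0.82 ± 0.28, and 10351037 at -0.37 ± 0.21 and -0.58 ± 0.21; both overlapped between the strains at both ages and did not pass. Probe set 10351039 was at -0.72 ± 0.24 and -1.03 ± 0.24 and passed at 26 weeks alone (adjusted p = 0.0189). Its BPH/2J values, 3.08 to 3.73, lay below the median of unnamed probe sets on the arrays (4.60 to 5.25). The BPN/3J medians of this probe set, 4.03 at 6 weeks and 4.34 at 26 weeks, lay below it too, with highest arrays at 4.71 and 5.69. The mean of the 4 probe sets gave -0.66 at 6 weeks and -1.03 at 26 weeks. Whether the strains differ in sequence under the probes of any of these probe sets was not tested, so the 3.15-fold and 3.19-fold values hold for probe set 10351026 and not for Gas5 RNA as a whole.

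Snord47, a small nucleolar RNA inside Gas5 with a probe set of its own, was at 4.85, 5.40 and 5.50 in BPH/2J and 5.14, 5.84 and 6.18 in BPN/3J at 6 weeks. Its differences were -0.43 ± 0.25 (adjusted p = 0.387) and -0.56 ± 0.25 (0.322). On BPN/3J replicate 6 of the 26-week group, Snord47 (7.31) and the probe sets 10351035 (8.23), 10351037 (10.15) and 10351039 (5.69) were all at their highest, while probe set 10351026 was near the low end of its group.

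**Figure D4:**
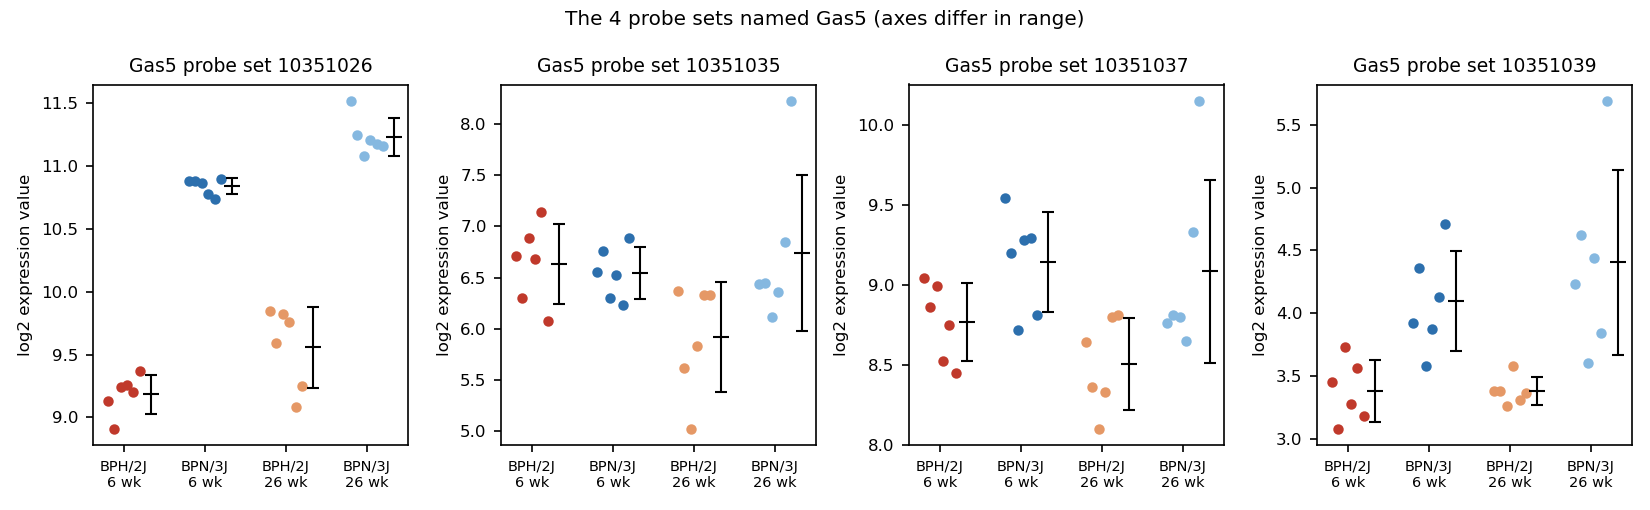
Log2 value (vertical axis, a separate range per panel) of the 4 probe sets named Gas5 in single mice, 6 per group, with mean ± SD as black bars. Only probe set 10351026 separates the strains at both ages, at 8.91 to 9.85 and 10.74 to 11.52, and on the other probe sets 1 BPN/3J mouse of 26 weeks stands above all others.

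The nearest measured neighbours of Gas5 had smaller strain differences, and none was called. The 3 nearest measured genes on either side were Rc3h1, Serpinc1 and Zbtb37, and Cenpl, Klhl20 and Ankrd45, and 0 of these 6 passed limma's test at either age, with 0 and 2 at an unadjusted p below 0.05. Zbtb37, whose annotated span overlaps the start of Gas5, was at -0.11 ± 0.09 and -0.31 ± 0.09 (adjusted p = 0.0619). The other 5 were between -0.05 and 0.08, apart from Ankrd45 at 26 weeks (0.30 ± 0.12, adjusted p = 0.279).

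Gas5 RNA is removed by nonsense-mediated decay as it is translated, and other small nucleolar RNA hosts are removed in the same way. Of 5 such host genes measured, 0 passed limma's test in a strain comparison, with 0 and 1 at an unadjusted p below 0.05; their median difference was 0.14 at 6 weeks and -0.10 at 26 weeks. Of 13 decay factors, Eif4a3, the helicase of the exon junction complex, was lower in BPH/2J at both ages. Over all genes 4.42% were called lower at 6 weeks and 1.34% at 26 weeks. For Eif4a3 the values were as follows. It was at 5.94 to 6.94 in BPH/2J and 8.03 to 8.92 in BPN/3J at 6 weeks. The 26-week values were 5.77 to 7.18 and 7.92 to 8.89. The differences were -1.86 ± 0.20 (limma adjusted p = 4.14e-07) and -1.89 ± 0.20 (2.78e-07). Whether the strains differ in sequence under the Eif4a3 probes, and whether its difference bears on Gas5, was not tested. At 26 weeks Smg1, the kinase of the pathway, was also lower (-0.51 ± 0.13, adjusted p = 0.0225), a call that ended with BPH/2J mouse 2 or 4 removed (adjusted p up to 0.0641), and the other 11 factors did not pass at either age.

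Age was compared within each strain. Of the 9 genes 2 were called in BPH/2J (background 16.9%) and 1 in BPN/3J (background 12.3%). With 1 mouse removed the count over all genes in BPN/3J, 2445, ran from 1034 (26-week mouse 4) to 4230 (26-week mouse 5). Nr3c2 was higher at 26 than at 6 weeks in BPH/2J by 0.41 ± 0.13 (adjusted p = 0.028), with no overlap between the ages; in BPN/3J it was at 0.33 ± 0.13 (0.0849), with overlap. The BPH/2J call was lost without replicate 3 (0.34, 0.085) or 4 (0.39, 0.0681) of the 26-week group or replicate 5 (0.40, 0.0519) of the 6-week group, and with the thalamus marker mean as a covariate (0.41 ± 0.20, 0.437). The thalamus markers rose with age in BPH/2J, in 13 of 16 genes, and limma called 0 of 16 in BPN/3J (1 had an unadjusted p below 0.05). Of 15 hypothalamus markers 7 fell in the ageing BPH/2J mice and 2 in BPN/3J, and of 13 oligodendrocyte markers 6 fell in BPN/3J, while 2 rose and 1 fell in BPH/2J.

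Gas5 was higher at 26 weeks by 0.37 ± 0.11 in BPH/2J (limma adjusted p = 0.0206) and 0.39 ± 0.11 in BPN/3J (0.0232). In each strain 1 of the 9 genes did not overlap between the ages, for which no share over all genes is given. For Gas5 this was so in BPN/3J and not in BPH/2J. The mean of its 4 probe sets was at -0.15 and 0.21, with no call, so the direction in BPH/2J rests on the choice of probe set. The BPH/2J call was also lost without replicate 1 (0.31, 0.0622), 3 (0.32, 0.0615) or 4 (0.33, 0.061) of the 26-week group, and the BPN/3J call without replicate 1 of that age (0.33, 0.0623). Sgk1 had an age difference of 0.49 ± 0.18 in BPH/2J (adjusted p = 0.061) and 0.20 ± 0.18 in BPN/3J (0.465). In BPH/2J it passed without replicate 2 of the 6-week group (0.63, 0.00902) or replicate 6 of the 26-week group (0.52, 0.0457). Fkbp5, Plin4, Tsc22d3 and Zbtb16 did not pass with age, at -0.06, 0.11, -0.06 and 0.17 in BPH/2J and -0.03, -0.07, -0.14 and 0.09 in BPN/3J, nor did Nr3c1 (0.18 and -0.06) or Ddit4 (0.16 in BPH/2J). Of the 26 other induced genes 5 were higher and 4 lower with age in BPH/2J (8.23% and 8.64% of all genes), and 4 and 4 in BPN/3J (4.6% and 7.66%). Among the listed genes Hsd11b1 was higher with age in both strains, by 0.53 ± 0.13 (adjusted p = 0.00589) in BPH/2J and 0.48 ± 0.13 (0.0185) in BPN/3J; the BPN/3J call ended with 26-week mouse 2 or 4 removed (adjusted p up to 0.0589), and the BPH/2J call with the thalamus covariate (0.44, 0.403).

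Variation between mice of the same group was then compared among the genes, after group means were removed. Of 36 pairs 1 passed, Sgk1 with Tsc22d3 (Pearson r = 0.79 over 24 mice, permutation p = 0.0003, adjusted 0.0108; Spearman rho = 0.63, permutation p = 0.0033, adjusted 0.119). Without the 2 mice farthest from the median of Sgk1 r was 0.62. Most of the relation lay at 6 weeks, with r = 0.95 over 12 mice, against 0.37 at 26 weeks; the difference between the ages was not tested. By rho 0 of 36 pairs passed after adjustment, and 5 pairs had an unadjusted permutation p of r below 0.05. Sgk1 with Zbtb16 (r = 0.62, adjusted p = 0.116 by permutation) and Tsc22d3 with Zbtb16 (r = 0.58, 0.116) rested on the extreme mice, since without the 2 farthest r was 0.27 and 0.25.

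These extremes were 2 mice of the 6-week BPH/2J group. Replicate 1 was the lowest of its group in all 5 of Fkbp5, Plin4, Sgk1, Tsc22d3 and Zbtb16, and in Ddit4. Replicate 2 was the highest of its group in Fkbp5, Sgk1, Tsc22d3 and Zbtb16. The same 2 mice had the lowest (7.98) and the highest (9.53) thalamus marker mean of that group, and replicate 2 the lowest hypothalamus marker mean (7.73). With the thalamus mean removed from each gene, r of Sgk1 with Tsc22d3 was 0.75. Nr3c1 and Gas5 formed no passing pair in the fit as first made, and Nr3c1 with Plin4 was at r = -0.58 (adjusted p = 0.116 by permutation). Other settings added a pair each: Nr3c1 with Plin4 with the thalamus mean removed (r = -0.72, permutation adjusted p = 0.00864), Plin4 with Ddit4 within the array sets (0.67, 0.0299), and Ddit4 with Gas5 with the mean of probe sets (-0.64, 0.0401), a pair whose r was 0.32 with probe set 10351026.

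**Figure D5:**
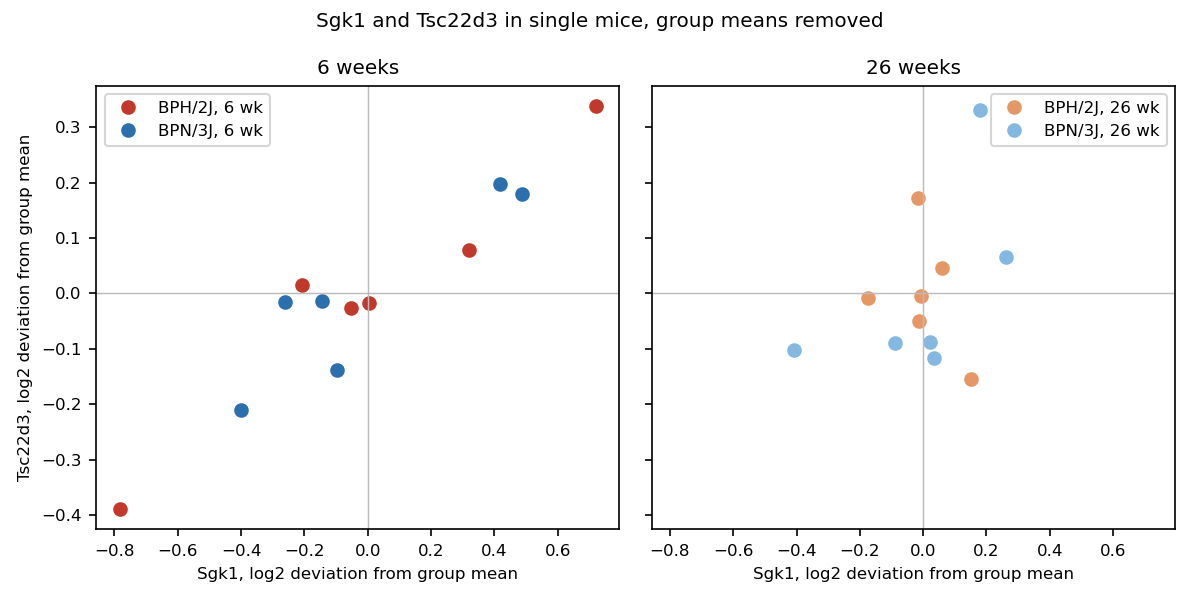
Deviation of Tsc22d3 (vertical axis) from its group mean against that of Sgk1 (horizontal axis), both in log2 units, 1 point per mouse, with 12 mice at 6 weeks on the left and 12 at 26 weeks on the right. The 6-week mice lie along a line (r = 0.95), with BPH/2J replicates 1 and 2 at its ends, and the 26-week mice do not (r = 0.37).

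Across all genes, those most like each of the 9 in their deviations over the 24 mice are given as a description. For Sgk1 they were Tsc22d3 (r = 0.79), Mertk (0.76) and Pdk4 (0.75). For Zbtb16 they were Mertk (0.79), Pdk4 (0.74) and Usp31 (0.68). Pdk4, a glucocorticoid-induced kinase that restrains pyruvate oxidation, was at 0.09 ± 0.13 and 0.25 ± 0.13 between the strains and did not pass, while Mertk, a phagocytic receptor kinase, was higher in BPH/2J at 6 weeks (0.42 ± 0.11, adjusted p = 0.018, and 0.0594 with BPH/2J mouse 3 removed) and at 0.37 ± 0.11 (0.0733) at 26 weeks. For Tsc22d3 they were Sgk1, Rab4a (0.78) and Mfsd2a (0.77), for Plin4 Lta (0.84), Arrdc2 (0.83) and Fmo9 (0.81), and for Fkbp5 Arl15 (0.82), Dennd6a (0.78) and Atg4c (0.77). Arrdc2 is another of the listed glucocorticoid-induced genes.

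The receptors, Ddit4 and Gas5 had other partners. Nr3c1 was most like Map3k5 (0.89), Acbd3 (0.87) and Ttc17 (0.87), and Nr3c2 like Cnksr2 (0.93), Ddn (0.89) and Iqgap2 (0.86). Ddit4 was most like Sirt3 (0.85), Nxpe3 (0.82) and Maml3 (0.81). For Gas5 they were Polr3e (0.83), Asphd1 (0.81) and Ankrd42 (0.79), and for Polr3e the value was 0.19 at 6 weeks and 0.96 at 26 weeks, the age at which the second array set stands apart. Nr3c2 with Ddn (0.21 and 0.94) and with Iqgap2 (-0.13 and 0.93) was likewise high at 26 weeks, while Sgk1 with Pdk4 was high at 6 weeks (0.94 and -0.04). None of these splits by age was tested.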

How the data were processed

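The authors deposited log2 expression values of 34760 probe sets on 24 arrays; the submitters' processing notes name RMA and limma, while tool versions and a genome build were not given in the sources read. Because RMA gives all arrays 1 distribution, a difference is read against the rest of the array. The platform table gave 21640 probe sets 1 symbol, 1321 several and 11799 none. Sample titles gave strain, age and replicate, and the labels' spelling BPN/3J was kept where the design text differs.

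A limma 3.58.1 model (R 4.3.3) held a mean for each group over all 24 arrays, with 20 residual degrees of freedom. P-values were adjusted by Benjamini-Hochberg over 19937 genes, at a threshold of 0.05, and the code was tested on simulated data. Correlations used 100000 permutations within groups, adjusted over 36 pairs. Alternatives were the mean of a gene's probe sets, centred or quantile-normalized arrays, a filter on dim genes, a fit of only the groups compared, an intensity trend, array weights, a replicate block, 2 covariates and single arrays left out.

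The genes and lists were chosen with earlier results of these data known. From each list the text draws on called genes, at most 4 per list and contrast by smallest p, or on the 2 with the smallest p where none was called; Dusp1, Errfi1, Klf9, Per1 and the 26-week value of Rasd1 were chosen after their values were seen. Over all arrays, the mean of the other marker lists was 7.48 to 7.81 for 9 microglia genes, 10.91 to 11.18 for 10 neuron genes, 6.17 to 8.45 for 10 choroid plexus and ependyma genes and 4.80 to 5.61 for 8 pituitary genes, and 1 measured red blood cell gene was at 5.48 to 6.29.

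Deviations of same-numbered arrays of the 2 strains had correlations over genes of 0.13 to 0.44 at 26 weeks and -0.23 to 0.05 at 6 weeks. Between the ages they were 0.01 to 0.41 in BPH/2J and -0.1 to 0.05 in BPN/3J. Arrays with different numbers were not compared, and replicates 5 and 6 of both strains make up the second array set. The labels do not say what the number stands for, and whether it pairs arrays was not tested.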

Additional observations from a re-analysis of the deposited data

Results flagged for a closer look

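Of 36 group tests for a single array far from the others, 2 found one, and chance gives about 1 in 20. Nr3c1 was at 9.22 on BPH/2J replicate 6 of the 26-week group, against 9.42 to 9.54 on the other arrays of that group. Nr3c2 was at 8.45 on BPN/3J replicate 4 of the 26-week group, against 7.36 to 7.74 on the others.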

How the results depend on the processing

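Over the 54 differences of the 9 genes, 1912 of 1953 values under other settings kept their side of the threshold; 16 lost a call, 24 gained one and 1 called value reversed. Of the 1422 values called in neither fit, 53 had the other sign. Gas5 for age in BPH/2J reversed, to -0.15 with the mean of its probe sets. Rasd1 reversed with the thalamus covariate, to 0.16 for strain at 6 weeks and to -0.17 for age in BPH/2J; the cause was not tested. The count of the 9 genes called for age in BPH/2J, 2, became 1 with the mean of all probe sets, 1 with only the groups compared, 5 with array weights, 0 with the thalamus covariate and 4 with the array sets as a term. For age in BPN/3J, 1 became 0 with the mean of all probe sets and 2 with array weights, with the array sets or without the second set. The passing correlation pairs, 1, became 2 with the mean of probe sets, with the thalamus mean removed and within the array sets. Leaving out single arrays gave counts of 2 to 4 for strain at 6 weeks, 2 to 5 at 26 weeks, 0 to 0 for the interaction, 0 to 3 for age in BPH/2J, 0 to 2 in BPN/3J, and 5 to 6 for the averaged contrast. The array sets, the averaged contrast and the block over 26-week arrays were chosen after the data were seen. The replicate block over all arrays called 3 genes at 6 weeks and 4 at 26 weeks, Zbtb16 being added, and the block over the 26-week arrays 3; neither changed another call of the 9 genes.

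Over all genes, 1479 called for strain at 6 weeks became 2322 with only those groups, 3725 with array weights, 2460 without the second array set and 162 with the thalamus covariate. At 26 weeks 532 became 248 with only those groups, 881 with the array sets as a term and 958 with the replicate block over the 26-week arrays. For the averaged contrast 1555 became 705 with the thalamus covariate, 2502 with array weights and 2403 with that block. For age in BPH/2J 3362 became 8 with the thalamus covariate and 7475, 7479 and 7843 with array weights, the array sets or without the second set, and in BPN/3J 2445 became 6416, 7325 and 6702. The 6 interaction calls became 0 with the thalamus covariate and 19 to 683 with the array sets, their removal, array weights, quantile normalization, the filter, the trend, the first component or either block. Leaving out single arrays gave 1034 to 1961 genes for strain at 6 weeks, 428 to 721 at 26 weeks, 1284 to 1915 for the averaged contrast, 0 to 496 for the interaction (most without 6-week BPH/2J replicate 2), 2138 to 4838 for age in BPH/2J (fewest without its 26-week replicate 4) and 1034 to 4230 in BPN/3J. In BPN/3J the count was 1382, 1151, 1034 and 4230 without 26-week replicates 1, 2, 4 and 5, and 1299, 1521 and 1545 without 6-week replicates 1, 3 and 4. Dim probe sets, such as 10351039, limit what a difference can show.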
